A study of Mus musculus with 8 samples.

Results

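Retinoid X receptor (RXR) peaks that were called in wild-type (WT) heart replicate 3 but not in WT heart replicate 4, and that lay away from gene ends, are described here. The members were chosen from the deposited peak lists. A peak of WT replicate 3 was kept when it overlapped no WT replicate 4 peak by at least 1 bp and when its summit, the position of highest signal, lay more than 1 kb from both ends of every protein-coding gene (RefSeq genes, mm10). The rule gave 10410 of the 19129 peaks of WT replicate 3. Their summits lay inside a protein-coding gene in 6061 cases and outside all protein-coding genes in 4349. Because absence from WT replicate 4 chose the members, their differences from shared peaks in fold enrichment are given as a description, with no test.

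RXR was immunoprecipitated from sheared chromatin of single newborn mouse hearts and sequenced (ChIP-seq), with an input library from the same heart as background. The hearts were taken on postnatal day 0 (P0), and the tissue was the total heart, so other heart cells than cardiomyocytes contributed chromatin. There were 2 WT hearts and 2 edKO hearts, in which the RXR genes Rxra and Rxrb had been deleted only in cardiomyocytes, both sets numbered 3 and 4. The labels name neither the transgene that drove the deletion nor the strain. Each heart had its own peak list. The WT lists held 19129 peaks (replicate 3) and 4697 peaks (replicate 4), and the edKO lists held 8 and 127 in the same order. The members come from 1 heart, so peaks are not replicates, and intervals cover counting error only. In total heart chromatin, binding in fewer cells and weaker binding in each cell cannot be told apart.

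RXRs are ligand-binding nuclear receptors that pair with other nuclear receptors, among them the fatty acid-sensing PPARs, the oxysterol-sensing LXRs, the thyroid hormone receptors and the retinoic acid receptors. The pairs bind repeats of a hexamer close to AGGTCA, and the spacing between the repeats differs between partners. Most sites of such receptors in mammalian genomes lie in introns and between genes, often far from the start of the gene they control. In the heart around birth, RXR pairs are known for the control of fatty acid use as the newborn changes from glucose to milk fat.

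Sequence could be shown for members whose summit fell in a RefSeq start window, the 300 bases from 250 before to 50 after an annotated start (RefSeq, GRCm38.p6, the build of the peaks). Although every member lay more than 1 kb from the outer ends of protein-coding genes, 397 (3.81%) had their summit in such a window. Of these, 261 lay at an annotated start of a protein-coding gene, that is, at a start within the gene, and 136 only at a start of another RefSeq gene such as a long noncoding RNA. The following 6 stretches are shown because they hold a repeat that an RXR pair could bind. They are all the repeats found before the start in the 430 windows of these members. Each is printed 5′ to 3′ on the strand of the named gene, with the repeat in capitals and up to 50 bases on each side.

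Gm52524 (chr2:115777056-115777156, - strand): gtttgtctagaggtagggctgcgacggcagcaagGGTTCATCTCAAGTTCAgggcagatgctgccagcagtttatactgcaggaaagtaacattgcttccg
Rpl3l (chr17:24732435-24732507, + strand): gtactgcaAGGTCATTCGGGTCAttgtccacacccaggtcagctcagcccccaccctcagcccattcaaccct
Slc7a7 (chr14:54418121-54418194, - strand): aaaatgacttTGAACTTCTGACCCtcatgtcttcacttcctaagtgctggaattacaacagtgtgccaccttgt
Ccdc71 (chr9:108460437-108460549, + strand): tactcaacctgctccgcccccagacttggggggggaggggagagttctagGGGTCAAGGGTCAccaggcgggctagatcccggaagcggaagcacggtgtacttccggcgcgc
1700054A03Rik (chr19:53076039-53076154, + strand): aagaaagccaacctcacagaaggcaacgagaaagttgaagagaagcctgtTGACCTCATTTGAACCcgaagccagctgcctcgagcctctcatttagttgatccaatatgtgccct
AU019990 (chr2:132598042-132598157, + strand): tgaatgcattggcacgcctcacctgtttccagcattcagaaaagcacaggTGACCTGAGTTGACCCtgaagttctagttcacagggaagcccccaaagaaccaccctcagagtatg

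The search took any 2 of the 4 hexamers AGGTCA, with the variants AGTTCA, or GGGTCA, or GGTTCA, in the same direction with 0 to 5 bases between them, on both strands. Ccdc71, a coiled-coil protein gene, held a repeat spaced by 1 base (DR1), the spacing known for PPAR pairs, 14 bp from the summit of a peak with 19 fragments at a fold enrichment of 5.74. The transcripts 1700054A03Rik and AU019990 held repeats spaced by 4 bases (DR4), known for LXR and thyroid hormone receptor pairs. Their peaks reached 5.05-fold and 3.98-fold, with 0 and 12 bp between summit and repeat. Gm52524, whose start lies inside the gene BC052040, held a repeat spaced by 5 bases (DR5), known for retinoic acid receptor pairs, 9 bp from the summit of a 9.43-fold peak. Rpl3l, a ribosomal protein gene of heart and skeletal muscle, held a repeat spaced by 3 bases (DR3), known for vitamin D receptor pairs. It lay 190 bp from the summit and outside the called peak, which began at 24732471. In Slc7a7, an amino acid transporter gene, a repeat spaced by 2 bases (DR2) lay 122 bp from the summit.

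Repeats were rare in these windows in general. A repeat occurred in 6 of the 430 member windows (1.4%, 95% Clopper-Pearson interval 0.514 to 3.01%), in 4 of 164 windows at summits shared by both WT hearts (2.44%, 0.668 to 6.13%) and in 298 of all 32851 RefSeq start windows (0.907%). The single hexamer AGGTCA, counted on either strand, occurred in 104 of the member windows (24.2%, 20.2 to 28.5%), in 46 of the shared windows (28.0%, 21.3 to 35.6%) and in 16.3% of all start windows. The 430 windows belong to 397 members and overlap at close starts. The same hexamer can thus count more than once, as in Pafah2, which the intervals do not take into account. At WT replicate 3 summits within 1 kb of gene ends its share was 15.2% (13.9 to 16.6%). The median GC content was 60.3% in the member windows, 64.5% in the shared windows, 65.0% in the windows near gene ends and 52.7% in all windows, and its part in these shares was not tested. A match of letters is a description and does not show that a receptor was bound to them.

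The next 6 stretches hold the single hexamer in the windows of protein-coding genes with the strongest such peaks, with the hexamer in capitals (TGACCT is AGGTCA on the other strand).

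Tmcc3 (chr10:94575121-94575226, + strand): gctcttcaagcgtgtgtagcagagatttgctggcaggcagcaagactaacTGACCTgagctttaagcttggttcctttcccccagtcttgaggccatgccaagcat
Lifr (chr15:7129322-7129380, + strand): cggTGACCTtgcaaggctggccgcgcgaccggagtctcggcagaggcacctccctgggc
Mecom (chr3:30013260-30013365, - strand): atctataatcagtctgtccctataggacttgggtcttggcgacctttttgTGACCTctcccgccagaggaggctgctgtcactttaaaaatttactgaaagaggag
Pafah2 (chr4:134402855-134402911, + strand): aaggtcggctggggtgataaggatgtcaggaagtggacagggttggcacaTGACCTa
Rsbn1l (chr5:20951914-20952019, - strand): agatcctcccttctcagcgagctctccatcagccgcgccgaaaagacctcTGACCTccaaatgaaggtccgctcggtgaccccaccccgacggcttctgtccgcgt
Rph3al (chr11:75925914-75926019, - strand): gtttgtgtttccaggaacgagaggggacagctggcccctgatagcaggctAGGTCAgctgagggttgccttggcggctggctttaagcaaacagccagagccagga

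In Tmcc3, which encodes a transmembrane coiled-coil protein of the endoplasmic reticulum, the peak reached 14.6-fold with 50 fragments at its summit, 82 bp from the hexamer. Lifr, the receptor gene for leukaemia inhibitory factor, had a peak of 13.8-fold and 47 fragments, 55 bp from the hexamer and 742 kb from the nearest WT replicate 4 peak. Mecom, a zinc finger transcription factor gene, had a peak of 11.8-fold with its summit 23 bp away. In Pafah2, which encodes an enzyme that hydrolyses oxidised phospholipids, the distance was 21 bp at 11.7-fold. In Rsbn1l the distance was 7 bp at 10.4-fold, and in Rph3al, a gene of vesicle exocytosis, it was 57 bp at 9.76-fold. All 6 peaks lay between 5987 and 62039 bp from the nearest end of their gene.

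The members were mostly weak peaks. Fold enrichment is the authors' ratio of the fragment pileup at the summit to the local background, each with a pseudocount of 1. Its median over the members was 5.17 (quartiles 4.31 and 6.36, range 2.36 to 28.7). The fragments at the summit, recovered from the deposited fold and −log10 p, had a median of 19 (quartiles 16 and 24, range 11 to 103) over a median background of 2.48 fragments. In 51.1% of members the background was at 2.48, the level of the whole list, so these summits stood in regions with no raised local background. For the 2750 peaks off gene ends that both WT hearts had, the WT replicate 3 medians were 9.76-fold and 38 fragments. Member peaks were also narrower, with a median width of 284 bp against 468 bp. Inside and outside genes the members had the same median fold of 5.17 and the same median of 19 fragments, and so did each distance class outside genes.

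**Figure D1:**
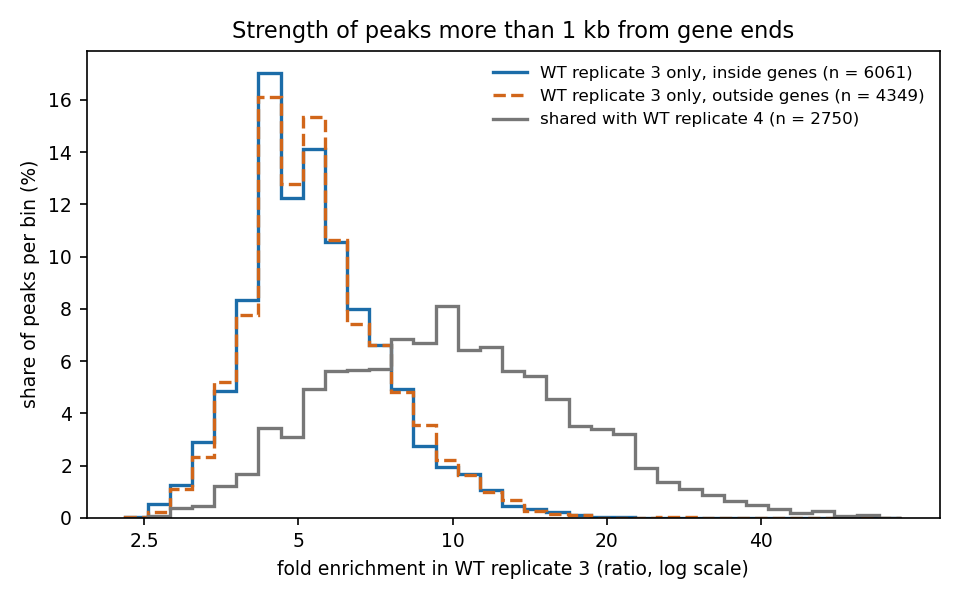
Share of peaks (y axis, %) in each bin of WT replicate 3 fold enrichment (x axis, ratio, log scale) for members inside genes, members outside genes and peaks shared with WT replicate 4, all more than 1 kb from gene ends. The curves of members inside and outside genes lie on each other around their common median of 5.17, and the shared peaks are spread around 9.76.

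Of the 13160 WT replicate 3 peaks off gene ends, 10410 (79.1%) had no overlapping WT replicate 4 peak. The rule used this contrast, and the shares that follow describe how it fell over peak strength. The share found again in WT replicate 4 was 5.5% at a fold of 4 to 5 (189 of 3437), 17.6% at 6 to 8 (471 of 2671) and 54.3% at 10 to 12 (346 of 637). It reached 89.5% at 15 to 20 (325 of 363), 97.0% at 20 to 30 (228 of 235) and 100% at 30 or more (90 of 90). At a matched fold of 8 to 10, the share was 36.9% (34.2 to 39.7%) off gene ends against 53.1% (48.5 to 57.6%) at gene ends, and at 10 to 12 the shares were 54.3% (50.4 to 58.2%) against 74.2% (68.5 to 79.4%). In each class from 5 to 15 the intervals of the 2 places did not overlap. In the classes under 5 and from 15 upward they did. Peaks of the 2 places were matched for fold but not for width, and a wider peak has more room to overlap. Median widths off and at gene ends were 284 and 306 bp for peaks of WT replicate 3 only, and 468 and 536 bp for shared peaks. The part of width in these shares was not tested. These intervals count peaks of 1 heart, so they say nothing of other hearts.

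**Figure D2:**
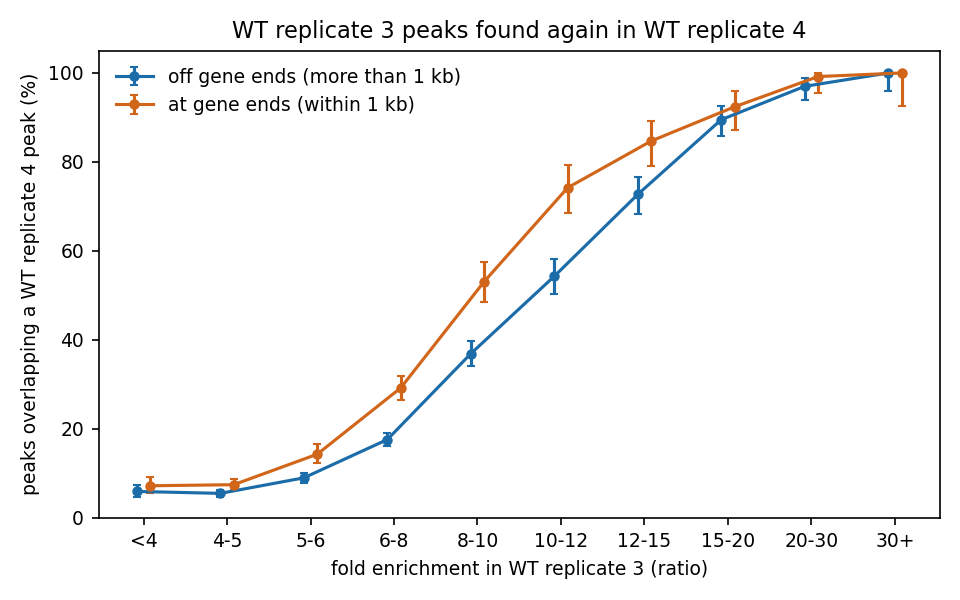
Share of WT replicate 3 peaks that overlap a WT replicate 4 peak (y axis, %) by fold enrichment in WT replicate 3 (x axis, classes of the ratio), for peaks off and at gene ends, with 95% Clopper-Pearson intervals as bars. Off gene ends the share goes from 5.5% at 4 to 5 to 100% at 30 or more, and from 5 to 15 it lies under the share at gene ends.

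Few members were strong. A fold of at least 10 was reached by 462, of at least 15 by 45 and of at least 20 by 7. A −log10 p of at least 10 was reached by 5414 (52.0%), against 91.2% of the shared peaks off gene ends. The lists had different lowest values, and 10314 members (99.1%) were at or above the smallest −log10 p in WT replicate 4, which was 4.7. Shared peaks off gene ends had a lower fold in WT replicate 4 than in WT replicate 3, with a median ratio of 0.665 (quartiles 0.493 and 0.881). Among the 643 with a fold of at least 15 in WT replicate 3, the median ratio was 0.466 and the lowest 0.141. These 643 were chosen by a high fold in WT replicate 3, and that choice alone can lower the ratio. Its part in the value of 0.466 was not tested, so strong peaks cannot be compared with all shared peaks in this way. The nearest WT replicate 4 peak lay at a median of 70.5 kb from a member, within 200 bp for 64 members and within 1 kb for 400.

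The 12 strongest members inside genes had folds between 16.9 and 21.5 and held between 58 and 78 fragments at their summits. The highest were in Afap1l1, which encodes an actin filament-associated adaptor (21.5-fold, 74 fragments, 27.7 kb from the nearest gene end), and in Sncaip, the gene of a synuclein-binding protein (21.2-fold, 73 fragments). Parva, which encodes the focal adhesion protein alpha-parvin, had a 20.7-fold peak on chromosome 7 from 112527205 to 112527656, 64.3 kb from the nearest gene end and 87.6 kb from the nearest WT replicate 4 peak. Slc16a3, the gene of a lactate exporter, had a 19.9-fold peak 2.45 kb from its end. Stim1, the calcium sensor of the sarcoplasmic and endoplasmic reticulum, had a 19.0-fold peak with 67 fragments over a background of 2.59. The others were in Exoc6b (19.1), in the clustered protocadherin genes of the Pcdhg locus (18.3), in Adnp (18.2), Podxl2 (17.8), Ralgps1 (17.2), Fyn (16.9) and Kirrel3 (16.9). The nearest WT replicate 4 peak to these 12 lay between 1.78 kb, at Adnp, and 360.0 kb, at Sncaip.

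Outside genes the strongest member lay 7.31 kb from Bcas1, on chromosome 2 from 170336300 to 170336856, with 99 fragments, a 28.7-fold enrichment and a −log10 p of 120.0. It was followed by members 39.7 kb from the cation channel gene Trpm3 (27.9-fold, 99 fragments), 2.09 kb from the RNA polymerase III subunit gene Polr3gl (26.3-fold, 103 fragments) and 20.0 kb from the matrix protease gene Adamts10 (26.1-fold, 90 fragments). The Polr3gl member is a near miss of the overlap rule: a WT replicate 4 peak of 12.3-fold lay 24 bp from its edge. The other 3 had their nearest WT replicate 4 peak 21.4 kb or more away, so a peak of 26.1 to 28.7-fold in one WT heart had no counterpart in the list of the other. The remaining 8 of the 12 had folds from 16.2 to 18.1. They lay nearest to Trmt9b, Prr30, Gpr6, the phosphatase gene Dusp1 (14.4 kb away, 17.2-fold), the Notch effector gene Rbpj (83.0 kb, 16.6-fold), the chondroitin synthase gene Chsy1, the muscle membrane protein gene Tmem182 (171.0 kb, 16.4-fold) and the cardiac transcription factor gene Gata4 (37.5 kb, 16.2-fold). The nearest gene is a position and not a known target.

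At the edges of the rule, peaks on either side had folds between 4.02 and 6.89. Just inside the distance limit were members in Podxl2 at 1002 bp from a gene end (5.17-fold) and in Zfp53 at 1003 bp (5.08-fold). Just outside it were peaks in Lgr4 (5.17-fold) and in the muscle ubiquitin ligase gene Trim63 (4.02-fold), both at 1000 bp. The smallest overlaps that removed a peak were 3 bp in Phc2 (4.26-fold) and 20 bp in Brd2 (4.28-fold). The smallest gaps that left a peak among the members were 2 bp in Plekha6 (6.89-fold) and 5 bp at Rpn1 (5.45-fold).

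The edKO lists were not used by the rule, and no member overlapped a peak in either of them. In edKO replicate 4, 126 of all 19129 WT replicate 3 peaks (0.659%) had an overlapping peak, against 0 of 10410 members, which allows a share of up to 0.0288%. Of the 2750 shared peaks off gene ends, 74 (2.69%, 2.12 to 3.37%) overlapped an edKO replicate 4 peak. In edKO replicate 3 the counts were 0 members and 5 shared peaks off gene ends. Strength moved with these counts. Among shared peaks off gene ends, the edKO replicate 4 count was 0 of 1426 under 10-fold, 4 of 681 at 10 to 15, 3 of 325 at 15 to 20, 22 of 228 at 20 to 30 and 45 of 90 above. Members had 0 of 9948, 0 of 417, 0 of 38 and 0 of 7 in the first 4 of these classes and none in the last. For 38 members at 15 to 20-fold a count of 0 allows a share of up to 7.89%, above the 0.923% of the shared peaks, so a difference at matched fold was not detectable with this number of peaks. The members nearest to an edKO replicate 4 peak were in or near Tbc1d5 (357 bp), the protease gene Htra1 (373 bp) and Mylip (392 bp), a ubiquitin ligase gene of the LDL receptor and an LXR target, with folds from 4.24 to 5.17.

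**Figure D3:**
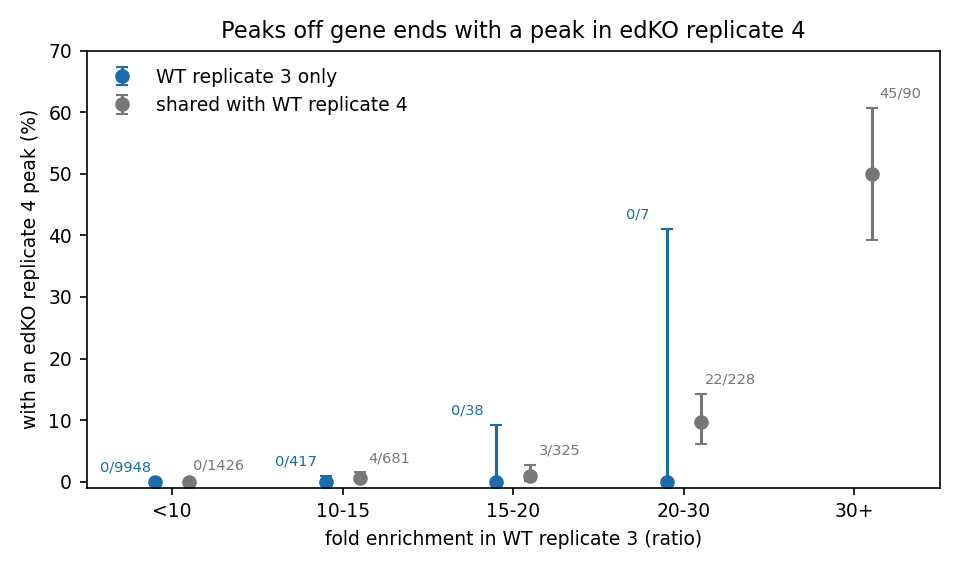
Share of peaks off gene ends that overlap an edKO replicate 4 peak (y axis, %) by fold enrichment in WT replicate 3 (x axis, classes of the ratio), for members and for peaks shared by the WT hearts, with counts and 95% Clopper-Pearson intervals. Overlaps are rare under 20-fold in both sets, and the members above it are 7.

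The place of the members in the genome was close to that of shared peaks. Inside protein-coding genes lay 58.2% of members (57.3 to 59.2%) and 56.8% of shared peaks off gene ends (54.9 to 58.7%), and the intervals overlapped. Of the 4349 members outside genes, 1194 (27.5%) lay 1 to 10 kb from the nearest gene, 1621 (37.3%) at 10 to 50 kb, 660 (15.2%) at 50 to 100 kb and 874 (20.1%, 18.9 to 21.3%) further away. Shared peaks were more than 100 kb from a gene in 15.9% (13.9 to 18.1%). Of the same 4349 members outside protein-coding genes, 1066 (24.5%) lay inside another RefSeq gene entry. Where the strand of the nearest gene was known, 52.5% of the outside members (50.8 to 54.3%) lay on its upstream side, against 52.7% (49.4 to 56.0%) of the shared peaks.

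Inside genes the members leaned to the 5′ side. The position was read for the 4678 members that lay in 1 gene of known strand, as a share of the gene body with 1 kb at each end left out. The 5′-most of 10 equal parts held 730 of them (15.6%, 14.6 to 16.7%) and the 3′-most 375 (8.02%, 7.25 to 8.83%), where an even spread gives 10%. For the shared peaks the corresponding shares were 19.0% (16.8 to 21.3%) and 6.15% (4.86 to 7.66%). The 5′ share of the members thus lay above an even spread and below that of the shared peaks, whose interval began just above theirs. The middle parts held between 8.42 and 10.7% of the members each.

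**Figure D4:**
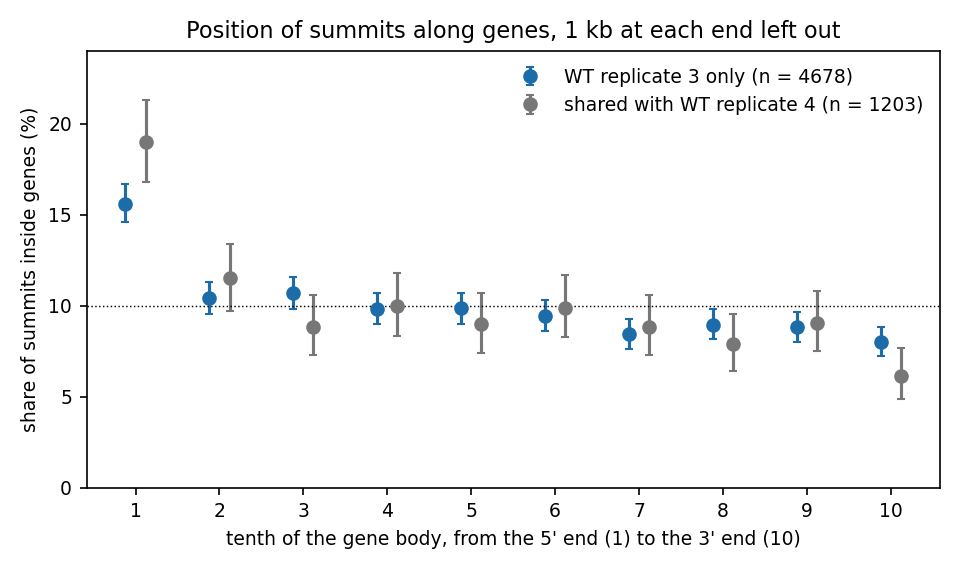
Share of summits (y axis, %) in each of 10 equal parts of the gene body from the 5′ end to the 3′ end (x axis), for 4678 members and 1203 shared peaks, with 95% Clopper-Pearson intervals and a dotted line at 10%. The 5′-most part holds 15.6% of members and 19.0% of shared peaks, and the 3′-most part 8.02% and 6.15%.

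Members were spread over many genes. Of 21883 protein-coding genes, 3278 (15%) held at least 1 member, 1987 of them exactly 1 and 224 at least 5. Genes with a member had a median length of 63.5 kb, against 17.2 kb over all genes, since a long gene has more room. Per length the order turned: members numbered 11.6 per Mb of gene body in genes under 10 kb and 2.9 per Mb in genes over 300 kb. The shared peaks followed the same order, from 3.56 to 0.659 per Mb.

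The largest number of members was 21, in Gse1, a gene of a transcriptional corepressor-associated protein, at 3.41 to 12.6-fold beside 7 shared peaks. Arhgap26, a GTPase-activating protein gene of 775 kb, held 19 members (3.62 to 8.04-fold) and Nav2, a neuron navigator gene, 16 (3.91 to 16.7-fold). The actin-binding protein gene Ablim1 and the transcriptional coregulator gene Zmiz1 each held 15, the podosome scaffold gene Sh3pxd2a and the focal adhesion gene Tns1 14 each. Mical2, an actin-oxidising enzyme gene, held 12 in 129 kb, or 9.28 per 100 kb. Nfia, a transcription factor gene, also held 12.

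Gene lists were read next, with a gene counted when a member summit lay inside it or within 10 kb. Over all protein-coding genes 4803 (21.9%) had such a member, and 3160 (14.4%) had one and no shared peak within the same distance. The strongest member of a gene had a median fold of 5.74 over all genes with one, and members inside genes numbered 6.17 per Mb, shared peaks off gene ends 1.57 per Mb. The lists had been put together with results of these data in view and hold genes of differing length, so the counts are descriptions. A member lay inside 2.46% of genes under 10 kb and 55.6% of genes over 300 kb, so list shares need gene length beside them.

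Of 35 nuclear receptor genes, 21 had a member, 8 of them with no shared peak. Their median length was 49.7 kb, and members inside them numbered 8.96 per Mb, against 6.17 over all genes. Thra, the thyroid hormone receptor gene, had 6 within 10 kb, the strongest a 16.4-fold peak with 56 fragments on chromosome 11 from 98751379 to 98751882. Rarb, a retinoic acid receptor gene and a classical retinoic acid target, had 4 members, the strongest 13.3-fold and 283697 bp inside the gene. Rxra, one of the genes deleted in edKO cardiomyocytes, held 4 members of up to 11.7-fold (54 fragments over a background of 3.7) beside 1 shared peak. Ppard had 4, Rxrb 1 and Ppara 1, while Rxrg, Esrra and Nr2f2 had none. Pparg, Vdr, Nr1h3, Thrb, Esrrb, Esr1, Nr3c2 and Nr5a2 were the 8 with members only. Nr1d1, the clock gene of REV-ERB alpha, had a 10.4-fold member 8006 bp away.

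Coregulators of these receptors had a member in 12 of 17 cases, at a median gene length of 118 kb and 11.9 members per Mb. Ncoa3, a coactivator gene, had a 12.3-fold member 7928 bp away, inside the neighbouring gene Sulf2. Ppargc1b, a coactivator gene of mitochondrial metabolism, held 5 members of up to 10.0-fold and no shared peak. Ncoa1 held 2 (up to 8.94-fold), also without a shared peak. Crebbp, Hdac3, Med1 and Ncor1 had neither. Of 14 genes of retinoid metabolism 3 had a member, and each of these had a shared peak too. The strongest member was 6.28-fold at Dhrs3, a retinal reductase gene, and 5.74-fold in Cyp26b1, which encodes an enzyme that breaks down retinoic acid.

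Of 23 fatty acid oxidation genes, all had a shared peak within 10 kb and 6 had a member. With a shared peak at every gene, none of them could have members only. Members inside these genes numbered 8.46 per Mb, against 6.17 over all genes. The strongest member was in Decr1, an enzyme gene of unsaturated fatty acid oxidation (16.6-fold, 57 fragments). A 9.81-fold member lay 9292 bp from Echs1, inside another gene, Paox. Members of 9.43 and 8.61-fold lay in Hadhb and in Cpt1a, the gene of the mitochondrial fatty acid import enzyme. Genes of lipid uptake, storage and synthesis had a member in 21 of 28 cases and a shared peak in 25. Mgll, the monoglyceride lipase gene, held 6 members (strongest 16.6-fold) and Elovl6, a fatty acid elongase gene, held 5 (up to 10.3-fold) with no shared peak. Fabp3, the heart fatty acid-binding protein gene, had a member of 11.4-fold and Fabp4 one of 9.24-fold. Members inside these lipid genes numbered 25.8 per Mb.

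Genes of glucose uptake and glycolysis had the widest ratio of members to shared peaks among the lists with any shared peak off gene ends inside them: 18 members lay inside them against 2 shared peaks off gene ends, or 27.3 against 3.04 per Mb. Of 25 genes, 16 had a member within 10 kb and 8 of these had no shared peak, namely Hk1, Slc2a1, Eno3, Pdk1, Pfkl, Pfkp, Aldoa and Ldha. The hexokinase gene Hk2 held 3 members (up to 8.75-fold) and Hk1 3 (up to 7.18-fold), while those near Aldoa and Pfkl reached 6.97 and 6.89-fold. Respiratory chain and TCA cycle genes had a member in 4 of 30 cases, Atp5b, Idh2, Idh3a and Cox7a1, at 4.88 to 6.03-fold. Only 2 of them held a member inside. The strongest members at Atp5b and Cox7a1 lay inside other genes, Baz2a and Capns1, 2520 and 9054 bp away. The list had a median gene length of 15.7 kb and 3.62 members per Mb.

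Genes of the contractile apparatus had a member in 21 of 31 cases. Their median length was 26.1 kb, and members inside them numbered 14.2 per Mb. Ldb3, a Z-disc protein gene, had 8 members (strongest 9.76-fold) beside 3 shared peaks. Csrp3, the muscle LIM protein gene, had 4 (up to 10.0-fold) and Tpm1, the tropomyosin gene, also 4, both without a shared peak. A 9.47-fold member lay 1894 bp from Tnnt2, the cardiac troponin T gene. Calcium handling genes had a member in 12 of 16 cases, with 7 in the L-type calcium channel gene Cacna1c (up to 9.47-fold), 5 in Jph2 and 5 in Itpr1. These genes are long, with a median of 294 kb, and their members numbered 7.54 per Mb, near the 6.17 of all genes. Ryr2, the calcium release channel gene, held 2 (up to 7.46-fold) and no shared peak. Ion channel and gap junction genes had a member in 13 of 22 cases, among them the potassium channel genes Kcnd3 (12.2-fold) and Kcnq1 (8.61-fold). Their median length was 64.0 kb, with 9.27 members per Mb.

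Cardiac transcription factor genes had a member in 13 of 22 cases and a shared peak in 7. Their median length was 43.3 kb, and members inside them numbered 14.8 per Mb, against 6.17 over all genes. The 8 with members only were Nkx2-5, Tbx5, Hand2, Mef2c, Zfpm2, Tead1, Meis1 and Meis2. Mef2d had a 9.79-fold member (54 fragments over a background of 4.62), Gata4 one of 8.32-fold inside the gene, and Prdm16 and Meis1 held 6 and 5. Signalling genes of the Wnt, Notch, BMP and TGF-beta pathways had members only in 12 of 29 cases (41.4%, against 14.4% of all genes). This was the highest share of the lists, but neuronal genes were close to it, with 8 of 20. The signalling genes had a median length of 46.4 kb, against 17.2 kb over all genes, so gene length can contribute to their share. Members inside them numbered 18.0 per Mb, against 6.17 over all genes. Tgfbr3, a TGF-beta co-receptor gene, held 7 of up to 8.22-fold, and Notch3 had 4. Insulin, IGF and growth factor genes had a member in 14 of 23 cases, with 6 in the insulin receptor gene Insr (up to 11.2-fold) and 3 in Erbb4. Their median length was 81.8 kb, and their 6.7 members per Mb were near the 6.17 of all genes. Clock and Klf genes had one in 17 of 26, led by Klf10 (12.6-fold), Tef (10.9-fold) and the clock gene Arntl (9.54-fold). Their median length was 28.1 kb, with 17.7 members per Mb.

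Markers of other cell types were included because the tissue was the total heart. Over all protein-coding genes the share with a member was 21.9%. Endothelial markers had a member in 14 of 20 cases, the strongest in Fli1 (10.9-fold), near Sox18 (9.79-fold), in Notch1 (9.47-fold) and in Tek (9.37-fold). Their median length was 44.4 kb, and members inside them numbered 18.8 per Mb. Fibroblast, epicardial and matrix markers had one in 9 of 20, with 10 members in the 136 kb gene Col4a2 (up to 10.0-fold). Col5a1, Fbn1 and Loxl1 had 4 each, Col4a1 had 3, Col1a1 had 2, and Fbln2, Wt1 and Ddr2 had 1 each. The other genes of this list had none, among them the fibroblast genes Pdgfra, Tcf21, Col1a2, Col3a1, Postn and Dcn. Smooth muscle and pericyte markers had one in 5 of 12, led by the 257 kb gene Mylk (9.43-fold). Myh11, Smtn, Rgs5 and Des had 1 each, while Acta2, Tagln, Cnn1 and Pdgfrb had none. Members inside these 2 lists numbered 22.2 and 16.1 per Mb, at median gene lengths of 38.4 and 28.3 kb. Blood and macrophage markers had one in 2 of 16, Mrc1 and Klf1 at 3.98 and 2.77-fold. Liver and kidney markers had one in 1 of 14, Ttr at 3.41-fold. Members inside the blood list numbered 1.35 per Mb and inside the liver and kidney list 3.58, at median gene lengths of 23.6 and 14.4 kb. Neuronal genes had one in 9 of 20 but are very long, with a median of 1010 kb, and their members numbered 0.416 per Mb, under the 6.17 per Mb of all genes. In which cell type RXR was bound was not measured.

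**Figure D5:**
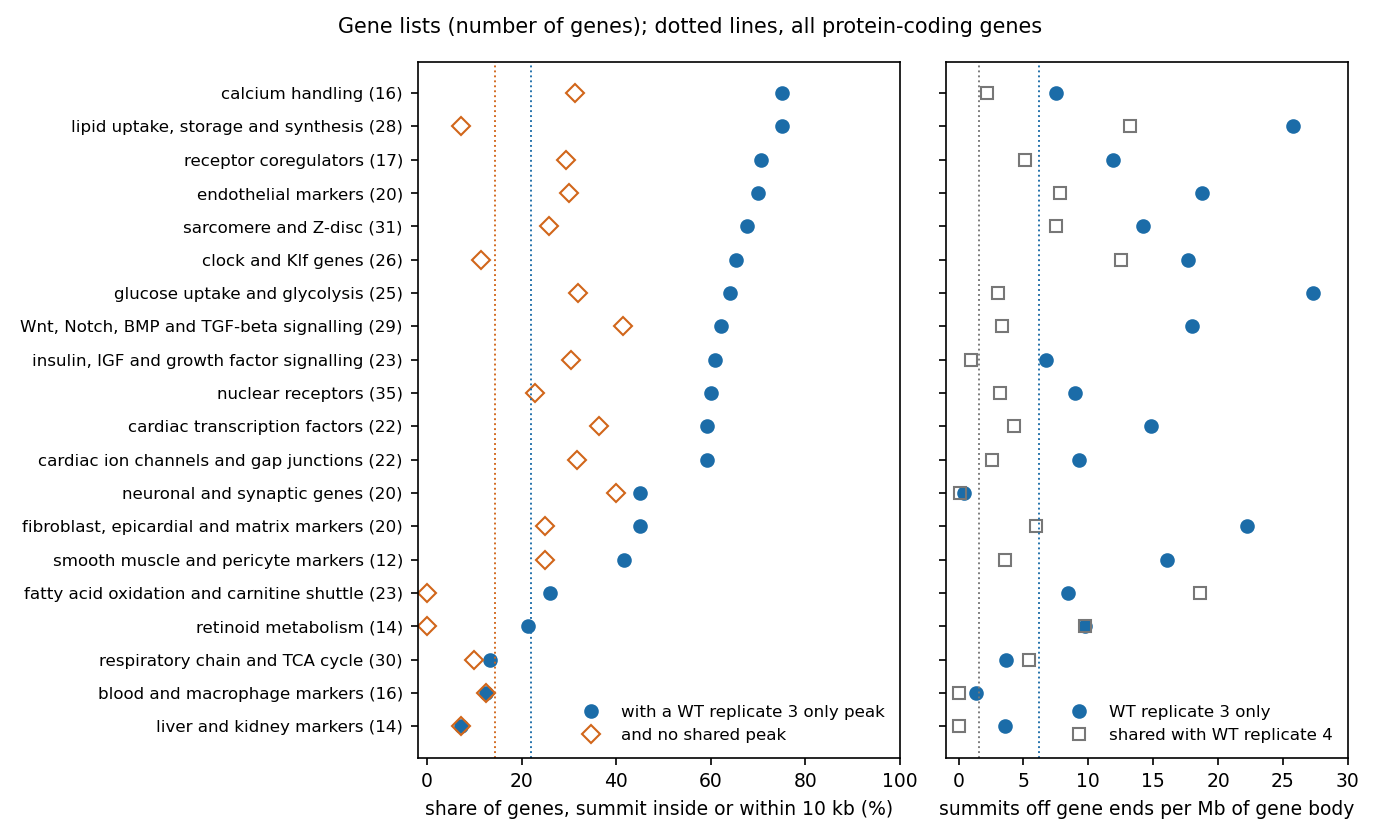
For 20 gene lists (y axis, number of genes in brackets), the left panel gives the share of genes with a member inside or within 10 kb and the share with a member and no shared peak (x axis, %), and the right panel the members and shared peaks off gene ends per Mb of gene body. Dotted lines mark all protein-coding genes, at 21.9 and 14.4% and at 6.17 and 1.57 per Mb, and the fatty acid oxidation list is the one with more than 15 shared peaks per Mb.

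Most members had no other member close by. When members less than 10 kb apart were joined, 6745 (64.8%) had no partner and 144 groups held at least 4. Peaks that are not members were left out of this grouping. With every WT replicate 3 peak counted, 4844 members (46.5%, 45.6 to 47.5%) lay within 10 kb of another peak. The largest group had 10 members in 36 kb in Zmynd8, a chromatin reader gene (2.77 to 8.04-fold). Groups of 8 lay in Sh3pxd2a (4.24 to 9.01-fold) and beside Atp2a2, the gene of the sarcoplasmic calcium pump (4.09 to 7.47-fold), with 2 and 4 shared peaks within 10 kb. Groups of 7 lay at Cstad (up to 13.5-fold), at the elastin gene Eln (up to 12.6-fold), in the transcription factor gene Nfix (up to 8.04-fold) and in Rcsd1 (up to 4.9-fold). Of these, the groups at Cstad, Eln and Nfix had no shared peak within 10 kb. Of all members 16.3% (15.6 to 17.0%) lay within 10 kb of a shared peak, while 23.4% (21.8 to 25%) of the shared peaks off gene ends lay that close to another shared peak. The median distance was 76.3 kb for members and 47.4 kb for shared peaks.

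Over the chromosomes the members numbered from 2.65 per Mb on chromosome 3 to 6.54 on chromosome 11, without the sex chromosomes. The X chromosome had 69 members, or 0.404 per Mb, and 14 shared peaks off gene ends, or 0.082 per Mb, although its gene density of 5.66 per Mb equalled that of chromosome 12, which had 3.73 members per Mb. The Y chromosome had neither. There were 4.93 members for each shared peak on X and between 3.12 and 4.41 on the other chromosomes with peaks. The labels do not name the sex of the hearts, and how many reads of X passed the authors' filters was not measured.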

How the data were processed

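RXR ChIP-seq peaks of 4 hearts were used, and the input libraries entered only through the authors' background. The submitters' processing notes name the tools cutadapt, BWA, SAMtools and MACS3 and the build mm10 (GRCm38), without versions or settings. The deposited fold enrichment is the authors' ratio of pileup to local background, and the deposited −log10 p and −log10 q values are the authors' significance of each peak within its list. Deposited starts, ends and summits are printed 1-based.

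Peaks were joined by an overlap of at least 1 bp and placed on 21883 protein-coding RefSeq genes (GRCm38.p6), with the strand taken from the RefSeq start windows for 79.9% of genes. Summit fragments and local background were solved together from the fold, with a pseudocount of 1, and a Poisson upper tail, and 100% of members gave whole fragments within 0.02. This precision is that of counting alone, and no label says whether duplicate reads were removed. Densities by gene length and by gene list leave out 1 kb at each gene end. The density of a single named gene uses its full length, and those of chromosomes use the annotated span. Shares have 95% Clopper-Pearson intervals, and a count of 0 was given the limit of 3 counts. Lists were matched by symbol, 443 of 443 entries, 1 by an older symbol. Named were the 12 strongest members inside and outside genes, the 10 genes with most members, up to 4 genes per list by strongest member, and the peaks at the edges of the rule. Some genes that this rule takes are not reported here. Other genes were named after their values were seen, as was the choice of start windows, which replaced a planned search around summits for which no genome was used here. Members and lists were chosen with earlier results of these data known. Python 3.11.15, numpy 2.4.6, scipy 1.17.1, pandas 2.3.3 and matplotlib 3.10.9 were used, and the code was tested on simulated peaks. Alternatives changed the overlap, the distance, the genes, the threshold and the hearts.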

Additional observations from a re-analysis of the deposited data

How the results depend on the processing

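No paired analysis was possible because every result is a description of the peaks of 1 heart and comes from no test. With a −log10 p of at least 10, 5414 members remained after the filter, with a median fold of 6.32, and 13.8% of genes had a member. The share inside genes was 59.3% with a limit of 500 bp from gene ends, 56.3% with 5 kb and 68.0% with all RefSeq genes, and the share of genes with a member was 25.2, 13.5 and 20.8% in the same order. It was 15% for members inside genes only and 41.7% within 50 kb. The share of members within 10 kb of a shared peak was 14.8% without members that had a WT replicate 4 peak within 500 bp, and 14% with a limit of 5 kb from gene ends. Leaving out either WT heart ends the definition of the members, and all peaks off gene ends of the other heart then stood in for them. These leave-one-out sets held 2971 to 13160 peaks with 56.8 to 57.9% inside genes, median folds of 5.54 to 6.05, 8.5 to 25.1% of genes with a peak, and 74 peaks with an edKO replicate 4 peak in both cases. No such value exists for the distance to a shared peak. The other alternatives left 31 values near those reported and the edKO count at 0. Of the 20 gene lists, 17 kept a count within 1.5 times for members inside genes, 15 within 50 kb and 13 with the higher −log10 p. The cause of these shifts was not tested. The search for motifs around all summits was not run. Counts of under 20 fragments at a median summit limit what a single heart can show.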

Other observations

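WT replicate 4 had its own counterpart of these peaks on a smaller scale. Of its 4697 peaks 263 overlapped no WT replicate 3 peak, and 196 of them lay off gene ends, 111 (56.6%) inside genes. Their median fold in WT replicate 4 was 4.97, and the strongest, at 13.4-fold, lay nearest to Cdkn1a, the gene of the cell cycle inhibitor p21.

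Of 1005 miRNA hairpins in the RefSeq table, 26 lay within 1 kb of a member summit. The 3 strongest of these members were the 11.5-fold peak in Erbb3, a neuregulin receptor gene, 612 bp from Mir6917, the 10.6-fold peak in 2700081O15Rik, 887 bp from Mir6991, and the 9.43-fold peak in Hadhb, 337 bp from Mir1960. An 8.04-fold member with 27 fragments lay 537 bp from Mirlet7c-2, a let-7 hairpin, and 28844 bp outside Ppara, the gene of a fatty acid-sensing RXR partner. These hairpins were found by position, and no miRNA level was measured.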
